A study of Mus musculus with 4 samples.

Results

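The genes described here encode proteins of red cell precursors and the enzymes of heme synthesis. They were measured in cells sorted from mouse spleen as marginal zone macrophages, which are phagocytes at the border of the white pulp. The list holds 37 genes, and a gene was taken where the array carried at least 1 probe annotated with its symbol alone. That gave 33 genes with 60 probes, out of 19057 genes named in the same way. Of the 33 genes, 31 were above background on all 4 arrays and are the members described below, by normalised intensity. Epb42, which encodes protein 4.2 of the red cell membrane, and Trim58, a ubiquitin ligase of late erythroblasts, were not above background on any array. Zfpm1, Epb41, Hbb-b1 and Ahsp had no probe with that single symbol and are not analysed here.

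All mice were of the BXD2 background, a recombinant inbred line prone to lupus-like autoimmunity, and were 2.5 months old. One array held cells of BXD2-Ifnar-/- mice, which lack the type I interferon receptor, given PBS. One held cells of BXD2 mice given 25 µg of sLTβR-Fc, a soluble decoy of the lymphotoxin β receptor, by vein. The controls were 2 arrays of BXD2 mice given PBS. A control Fc protein was not among the treatments. Each array pooled the cells of 2 mice killed 10 hours after the injection. The labels describe the sort as positive for SIGN-R1, low for CD11b and negative for F4/80 and I-Ab. The gene for SIGN-R1, Cd209b, read 152 with Ifnar-/- and 145 with sLTβR-Fc, against 127 and 130.1 on the control arrays, where the floor for background was 112. Marco, a scavenger receptor known from the same macrophages, read 181 and 168, against 252 and 162. Both were above background but dim on all 4 arrays. Cd209d, a related lectin on the list of 5 measured markers of these macrophages, read 1304 and 315, against 216 and 306, and was the only one of the 5 with a 2-fold difference (log2 2.34 for Ifnar-/-). The Ifnar-/- and sLTβR-Fc arrays have no replicate, and the gap between the control arrays is the only spread between replicates. Nothing in the labels says whether the control arrays came from separate mice, so that spread may be technical.

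Red cell precursors mature in the red pulp of the mouse spleen, where they sit in islands around macrophages. The transcription factors Gata1, Tal1, Lmo2 and Klf1 turn on the genes for globin, for the membrane skeleton and for heme synthesis. Heme is built in mitochondria and cytosol by a chain of enzymes that starts with Alas2 in this lineage and ends with Fech, which inserts the iron. Binding sites of Gata1 share the core GATA, and those of Klf1 carry a CACCC box.

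The promoters shown are of members that held a GATA motif and met a rule of size. They were 2-fold from both controls on 1 array or more, or 2-fold apart between the controls. Holding the motif was a condition for display, so the sequences shown do not represent all members with such differences. Ank1, Car2 and Slc4a1 met the rule of size but had no promoter window. Each sequence is the 250 bases before a RefSeq start of the gene, 5′ to 3′ on the strand of the gene. For Ermap that start lies inside the outer bound of the gene at 119190013, so the last bases of its window fall within the gene. Capitals mark the GATA motif (AGATAA or AGATAG or TGATAA or TGATAG, either strand) and the CACCC box (CCNCACCC, either strand), which overlaps itself in Alas2.
Klf1 (GRCm38.p6, chr8:84901732-84901981, plus strand): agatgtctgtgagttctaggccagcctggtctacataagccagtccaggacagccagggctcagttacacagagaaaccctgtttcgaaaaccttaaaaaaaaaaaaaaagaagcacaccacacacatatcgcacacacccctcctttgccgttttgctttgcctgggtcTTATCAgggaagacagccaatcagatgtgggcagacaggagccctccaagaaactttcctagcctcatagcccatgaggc
Rhd (GRCm38.p6, chr4:134864286-134864535, plus strand): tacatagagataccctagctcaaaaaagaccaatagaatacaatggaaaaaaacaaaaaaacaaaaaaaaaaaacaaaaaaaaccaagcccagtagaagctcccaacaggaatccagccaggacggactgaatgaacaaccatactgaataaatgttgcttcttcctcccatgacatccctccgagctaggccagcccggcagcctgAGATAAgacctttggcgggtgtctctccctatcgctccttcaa
Ermap (GRCm38.p6, chr4:119189996-119190245, minus strand): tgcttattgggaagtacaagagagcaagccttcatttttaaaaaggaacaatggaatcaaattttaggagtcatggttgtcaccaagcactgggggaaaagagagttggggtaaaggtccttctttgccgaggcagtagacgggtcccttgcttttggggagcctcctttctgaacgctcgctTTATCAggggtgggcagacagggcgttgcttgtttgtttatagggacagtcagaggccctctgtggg
Alas2 (GRCm38.p6, chrX:150547167-150547416, plus strand): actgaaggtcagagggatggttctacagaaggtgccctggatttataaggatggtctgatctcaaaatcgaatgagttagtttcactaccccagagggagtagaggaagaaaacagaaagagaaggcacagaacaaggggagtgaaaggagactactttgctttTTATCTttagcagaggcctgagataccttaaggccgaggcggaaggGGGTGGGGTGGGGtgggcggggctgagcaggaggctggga
Hba-a1 (GRCm38.p6, chr11:32283422-32283671, plus strand): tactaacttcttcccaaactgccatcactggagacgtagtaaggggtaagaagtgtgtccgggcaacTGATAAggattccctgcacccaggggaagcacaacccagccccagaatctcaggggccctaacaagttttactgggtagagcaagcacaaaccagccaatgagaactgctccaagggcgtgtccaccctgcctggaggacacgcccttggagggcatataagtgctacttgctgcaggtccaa

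The GATA motif lies with its 5′ base 80 bases before the start in Klf1, 43 in Rhd, 67 in Ermap, 86 in Alas2 and 183 in Hba-a1. Promoter windows were found for 22 members, 26 windows in all, and 14 of the windows (53.8%) held a GATA motif, against 26.5% of all 32851 mouse windows of that length. The CACCC box was in 6 of the 26 windows (23.1%), against 14.9% of all windows. Aqp1 and Sptb, which had some of the largest differences below, had no GATA motif in this stretch. A match of letters is a description and says nothing of whether a factor was bound in these cells.

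Most members read lower with Ifnar-/- and with sLTβR-Fc than on the control arrays, and the control arrays themselves stood apart, control 1 being the higher. Their summed normalised intensity was 16045 with Ifnar-/- and 19779 with sLTβR-Fc, against 34599 on control 1 and 26018 on control 2. Of the 31 members, 22 read lower on both the Ifnar-/- and the sLTβR-Fc array than on either control. The same held for 18.5% of the 13901 genes compared. The members were above background on all 4 arrays, whereas 10365 of the 13901 genes were. Values tied at the floor cannot read lower than each other, which tends to lower this and the later shares of all genes. Shares by these rules among the 10365 genes were not counted. For 20 members the order was control 1, then control 2, then both other arrays, which held for 10.9% of all genes. Control 1 gave the highest value for 25 members, against 21.1% of all genes. The list was chosen with earlier results of these data known. Here and below, the shares of all genes are therefore a description and not an independent test of the members. These are pooled cells, so fewer erythroid cells in a sort and less of these RNAs per cell cannot be told apart.

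**Figure D1:**
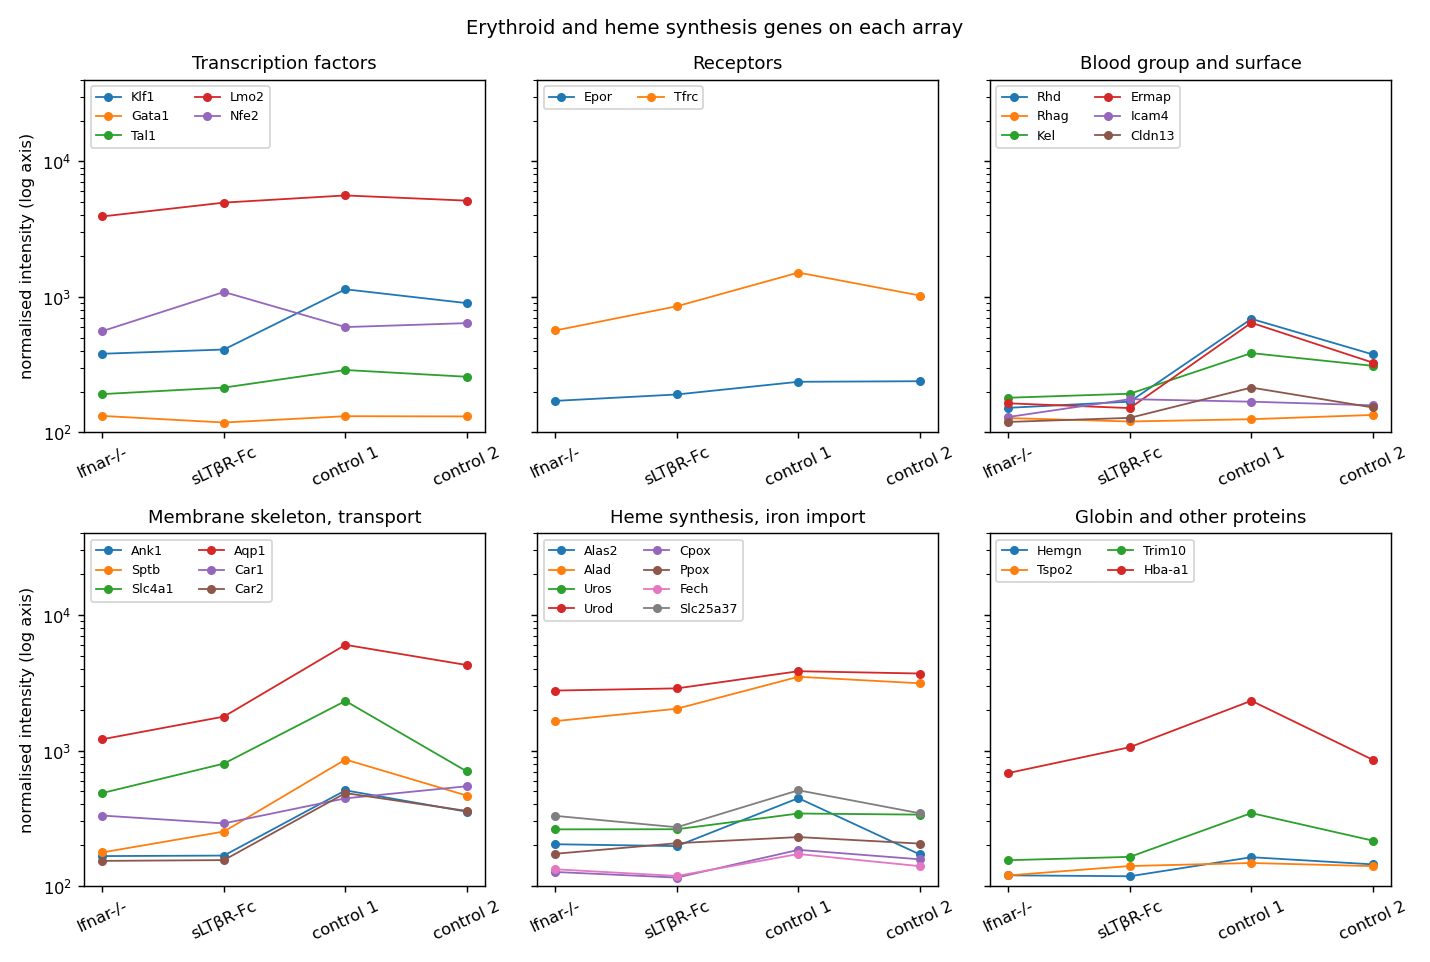
Normalised intensity (log axis) of the 31 measured genes on the Ifnar-/-, sLTβR-Fc, control 1 and control 2 arrays, 1 point per array and 1 line per gene, grouped by role. Control 1 is the highest point for 25 of the 31 genes. Nfe2 and Icam4 peak on the sLTβR-Fc array, Nfe2 at 1086 and the dimmer Icam4 at 176.

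The Ifnar-/- array was first set against both controls, the comparison for loss of interferon signalling. A gene counts as 2-fold lower here when its log2 difference is 1 or more below each control array. By that rule 6 of 31 members were 2-fold lower (Klf1, Rhd, Ank1, Sptb, Aqp1 and Car2) and 0 were higher, against 0.993% and 0.597% of all genes. Against the control mean the members had a median log2 difference of -0.51, and that of all genes was 0.0021. On 28 members the array read below both controls (30.9% of all genes), and 22 members lay below the nearer control by more than the gap between the controls (19.8% of all genes).

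The sLTβR-Fc array was set against the same controls, the comparison for blockade of the lymphotoxin β receptor. Again 6 members were 2-fold lower (Klf1, Rhd, Ermap, Ank1, Aqp1 and Car2) and 0 were higher, against 0.496% and 1.06% of all genes. The members' median was -0.50, and that of all genes was 0.0051. The array read below both controls on 24 members (31.6% of all genes), and 16 lay below the nearer control by more than the gap between the controls (20.1% of all genes). The members 2-fold lower on both arrays were Klf1, Rhd, Ank1, Aqp1 and Car2, 5 of 31, against 0.252% of all genes. Both comparisons use the same pair of control arrays, so a high value on the controls lowers both.

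limma with Benjamini-Hochberg adjustment over all 13901 genes called 0 members and 0 genes in either comparison. Its lowest adjusted p was 0.206 for Ifnar-/- and 0.142 for sLTβR-Fc, while 8 and 7 members had an unadjusted p under 0.05, as had 2803 and 3340 of all genes. A second limma fit used the 10365 genes above background on all 4 arrays. It called 21 members lower and 0 higher for Ifnar-/- (9.79% and 9.59% of genes) and 18 lower and 1 higher for sLTβR-Fc (9.45% and 13.4% of genes). That fit takes nearly all of its variance from other genes of similar brightness, so it hardly registers that a member's own control values lie far apart. Cldn13, Slc4a1, Trim10 and Hba-a1 were called lower on the Ifnar-/- array although they lay closer to control 2 than the controls lay to each other. On the sLTβR-Fc array the same held for Tfrc, Cldn13, Sptb, Slc4a1, Trim10, Fech and Slc25a37. There Slc4a1 was called lower although its value of 801 lay above that of control 2, at 701.

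**Figure D2:**
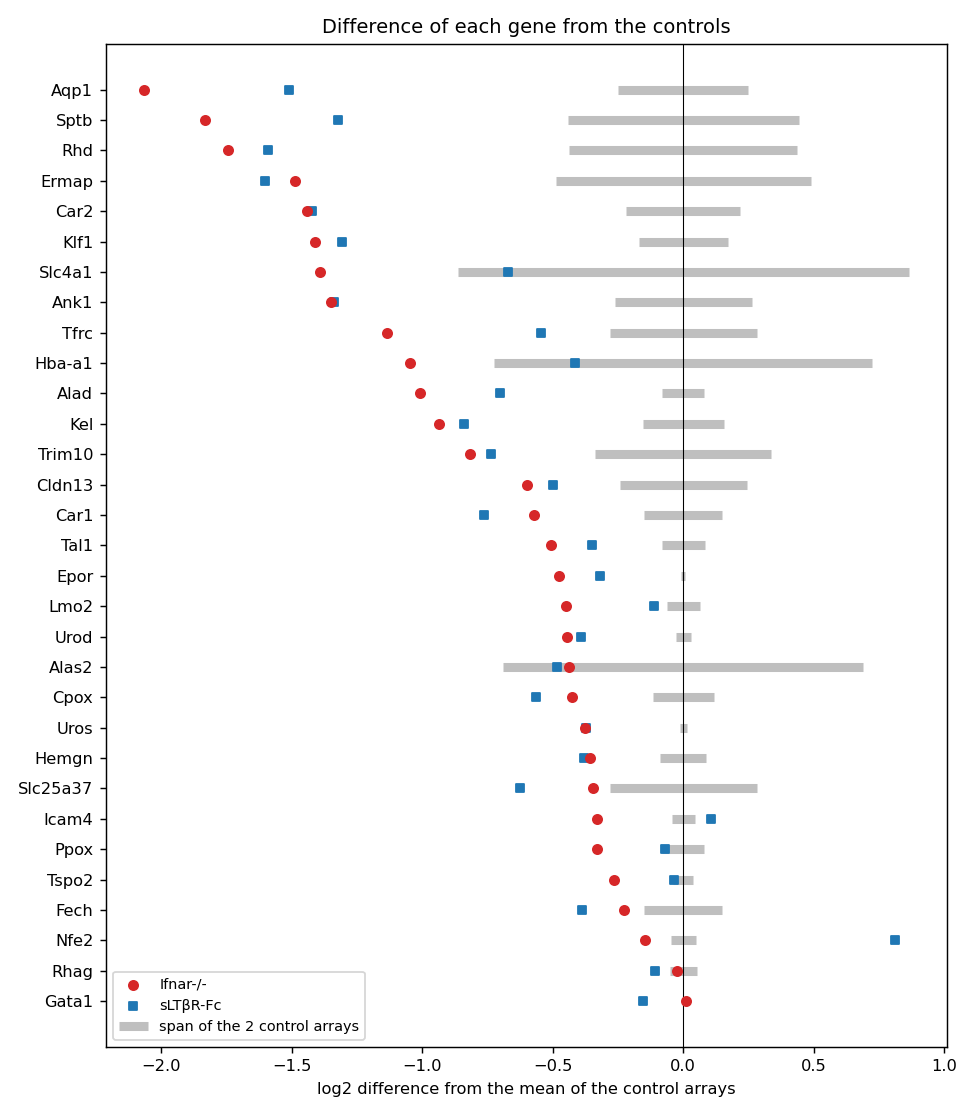
Log2 difference of each of the 31 genes from the mean of the control arrays, with red circles for Ifnar-/-, blue squares for sLTβR-Fc and grey bars for the span of the 2 control arrays. Aqp1 lies farthest left for Ifnar-/- at -2.07, and Slc4a1, Hba-a1 and Alas2 have the widest control spans.

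Among the transcription factors, Klf1, which activates globin and membrane genes of red cell precursors, differed most. Klf1 read 380 with Ifnar-/- and 409 with sLTβR-Fc, against 1137 and 898 on the controls. Both values were below both controls by more than 2-fold, at log2 -1.41 ± 0.22 and -1.31 ± 0.22 (SE from the first limma fit). Tal1, a partner of Gata1, read 192 and 214, against 289 and 257 on the controls. Lmo2, the bridging protein of that complex, read 3921 and 4958, against 5602 and 5127. These differences were small, and the sLTβR-Fc value of Lmo2 lay closer to control 2 than the controls lay to each other. Gata1, the master regulator of the lineage, was dim, at 132 and 118, against 132 and 131, and the Ifnar-/- array could not be told from the controls. Nfe2, a factor of erythroid cells and megakaryocytes, went the other way on 1 array. It read 559 with Ifnar-/- and 1086 with sLTβR-Fc, against 598 and 640 on the controls. The log2 difference was 0.81 for sLTβR-Fc, on 1 array, where the gap between the controls was 0.097.

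The receptors were lower on both arrays. Tfrc, which brings transferrin-bound iron into the cell, read 565 with Ifnar-/- and 852 with sLTβR-Fc, against 1510 and 1023 on the controls. A second Tfrc probe gave 468 and 748, against 1384 and 1008. Epor, the erythropoietin receptor, read 171 and 190, against 236 and 238, with log2 differences of -0.47 and -0.32. The Epor controls were nearly equal, while the Tfrc controls stood 1.48-fold apart.

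Surface proteins of red cells held some of the largest differences. Rhd, which encodes the Rh blood group protein, read 152 and 169 with Ifnar-/- and sLTβR-Fc, against 688 and 376 on the controls. The means were 3.35-fold and 3.02-fold lower, with an SE of 0.55 on the log2 scale. Ermap, an erythroid membrane protein of the immunoglobulin family, read 164 and 151, against 644 and 327. Its log2 difference from control 2 was -0.998 on the Ifnar-/- array, just short of the 2-fold rule, and -1.11 on the sLTβR-Fc array. A second Ermap probe gave smaller differences, at log2 -0.69 and -0.72. Kel, the Kell blood group metalloprotease, read 180 and 193, against 384 and 310. It did not reach 2-fold from both controls on either array, though both values lay below the controls by more than their gap.

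The other surface genes read close to background. Cldn13, a claudin of mouse erythroblasts, read 119 and 128, against 214 and 153. Icam4, an erythroid adhesion molecule, read 130 and 176, against 168 and 158, so that it was below both controls on the Ifnar-/- array and above both on the sLTβR-Fc array, where the sign turned in the values as deposited (log2 -0.24). Rhag, the ammonium channel partner of the Rh proteins, stayed between 120 and 134 on the 4 arrays on its brightest probe and showed no difference beyond the control gap there. Its other probes, which were not above background on every array, had log2 differences of -0.085 and -0.21 for Ifnar-/- and -0.049 and -0.17 for sLTβR-Fc, larger than their control gaps.

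Genes of the membrane skeleton and of transport had the lowest medians of any role with more than 1 gene, at log2 -1.42 for Ifnar-/- and -1.33 for sLTβR-Fc (6 genes). Aqp1, a water channel, read 1212 with Ifnar-/- and 1781 with sLTβR-Fc, against 6028 and 4273 on the controls. It was 4.19-fold and 2.85-fold below the control mean (log2 -2.07 ± 0.31 and -1.51 ± 0.31), the largest Ifnar-/- difference among the members. Further Aqp1 probes lay in the same direction, at -1.68 and -0.87 for Ifnar-/- and -1.13 and -0.81 for sLTβR-Fc. Sptb, the β chain of erythroid spectrin, read 177 and 253, against 858 and 465. It was 2-fold below both controls on the Ifnar-/- array only, by that rule. Further Sptb probes were at or near background on all 4 arrays and showed no such difference.

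Ank1, the ankyrin that ties spectrin to the membrane, read 166 and 168, against 509 and 354 on the controls. Car2, a carbonic anhydrase, read 153 and 155, against 485 and 358, and its second probe read 159 and 178, against 519 and 264. The Ifnar-/- and sLTβR-Fc arrays were close to each other on both genes. On the brightest probe of each gene both arrays were 2-fold or more below either control, whereas the second Car2 probe differed from control 2 by log2 -0.73 and -0.57 only. The second Ank1 probe was dim and above background on the control arrays only. On both other arrays it lay at the floor, log2 -0.24 from the control mean and -0.10 from control 2. Car1, another carbonic anhydrase, read 331 and 290, against 444 and 546, and was the only member of this role with the higher control value on control 2. Slc4a1, the anion exchanger band 3, read 486 and 801, against 2322 and 701. Its sLTβR-Fc value lay between the controls, and its controls differed 3.31-fold.

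The heme synthesis enzymes were lower by smaller amounts, with medians of -0.40 for Ifnar-/- and -0.44 for sLTβR-Fc over 8 genes including the iron importer, and 0 of the 8 were 2-fold lower than both controls. Alad, the enzyme of the second step, read 1649 and 2035, against 3503 and 3135 on the controls. Its log2 differences were -1.01 ± 0.12 and -0.70 ± 0.12, well beyond the gap of -0.16 between the controls. Urod, a decarboxylase in the middle of the chain, read 2771 and 2876, against 3849 and 3702, and Uros, the enzyme before it, 262 and 263, against 343 and 337. Both enzymes had close controls and lay below them on both arrays. Neither was called by the second limma fit, where adjusted p was between 0.0576 and 0.224.

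The last enzymes of the chain read nearer to background. Cpox read 127 and 116, against 185 and 158, and Ppox 173 and 207, against 230 and 206. Fech, which makes heme by adding iron, read 133 and 119, against 172 and 140. On the brightest probe of each gene, Cpox lay beyond the control gap on both arrays, Ppox only on the Ifnar-/- array and Fech on neither. Further probes of these genes were not above background on every array. No further Cpox probe lay below the controls by more than their gap, while a dim Fech probe did on the Ifnar-/- array (log2 -0.098). The further probes of Uros, Slc25a37, Trim10 and Hemgn were at or near the floor. Slc25a37, mitoferrin, which carries iron into the mitochondria, read 330 and 272, against 509 and 344, and did not lie beyond the control gap on either array. Alas2, the erythroid enzyme of the first step, read 204 and 197, against 446 and 171, so that both values lay between the controls.

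Hba-a1, an α globin gene, read 683 with Ifnar-/- and 1059 with sLTβR-Fc, against 2331 and 854 on the controls. Its probe may not tell it from its near-identical copy, so the value is uncertain for the single gene. Only the Ifnar-/- value was below both controls. Trim10, a protein of terminal erythroid differentiation, read 155 and 164, against 346 and 216. Hemgn, a nuclear protein of blood progenitors, read 120 and 118, against 163 and 145, and Tspo2, an erythroid membrane protein, 120 and 141, against 148 and 140.

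The gap between the control arrays was widest for Slc4a1, Hba-a1 and Alas2. These 3 of 31 members were 2-fold lower on control 2 than on control 1, as were 24 of all 13901 genes (0.173%), and 0 members were 2-fold higher (0.0504%). In log2 they differed by -1.73, -1.45 and -1.38. The members' median gap was -0.30 and that of all genes was 0, and 27 members were lower on control 2 (43% of all genes). Gata1, Epor, Uros and Urod, with gaps between -0.056 and 0.014, differed least. The gap decides how many members count as 2-fold lower. Against control 1 alone, 14 members were 2-fold lower for Ifnar-/- and 11 for sLTβR-Fc (1.88% and 1.08% of all genes). Against control 2 alone, 6 were lower on each (1.18% and 0.777%).

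**Figure D3:**
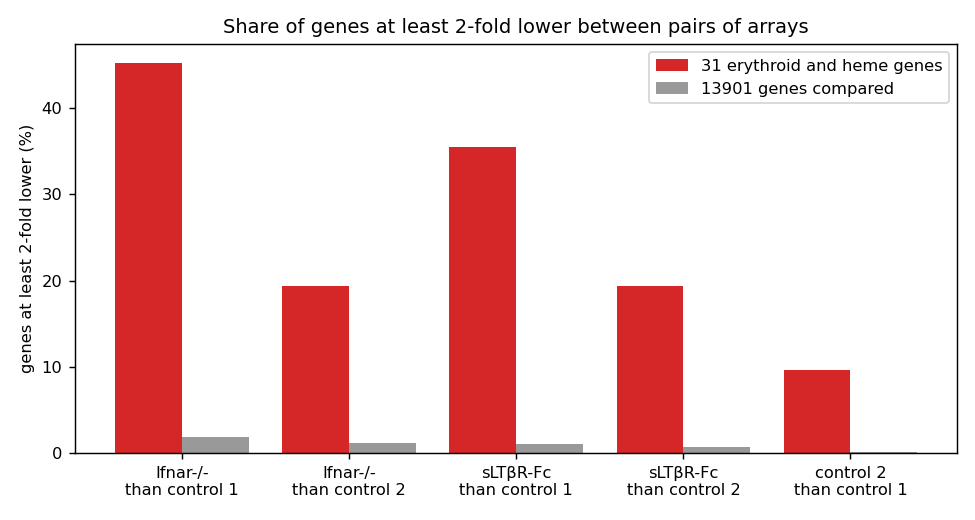
Share of genes (%) at least 2-fold lower between pairs of arrays, in red for the 31 erythroid and heme genes and in grey for all 13901 genes. The share of the 31 genes is 45.2% for Ifnar-/- against control 1 and 19.4% against control 2, and it is 9.68% for control 2 against control 1.

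The Ifnar-/- and sLTβR-Fc arrays were also compared directly. No member differed 2-fold between them (0 lower and 0 higher, against 1.64% and 0.741% of all genes), and the members' median log2 difference, Ifnar-/- minus sLTβR-Fc, was -0.10. The sign of this median depended on the scaling, since it was 0.040 in the values as deposited. The second limma fit called 5 members lower on the Ifnar-/- array and 0 higher (9.49% and 6.92% of genes). These were Nfe2 (log2 -0.96), Slc4a1 (-0.72), Hba-a1 (-0.63), Aqp1 (-0.56) and Icam4 (-0.44), with adjusted p between 0.000852 and 0.0458, and the first fit called 0 genes. Each of these values is 1 array against 1 array.

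Other genes of the lineage behaved less evenly, but of 30 further erythroid genes measured only 21 were above background on all 4 arrays. Differences of genes at or near the floor are understated, so the medians of this list are not on a par with those of the members. On the Ifnar-/- array 15 of the 30 were below both controls (30.9% of all genes) and 7 above, with a median log2 difference of -0.064. On the sLTβR-Fc array 16 were below both (31.6% of all genes) and 6 above, with a median of -0.071. For this list and those that follow, the share of all genes above both controls was not counted. Gfi1b, a repressor of erythroid and megakaryocyte cells, was 2-fold lower on the Ifnar-/- array, at 290 and 323 with Ifnar-/- and sLTβR-Fc, against 596 and 598. Klf3, a Klf repressor that Klf1 induces, was 2-fold lower on the sLTβR-Fc array, at 260 and 170, against 476 and 445. Hbb-b2, a β globin gene, had a wide control gap too, at 229 and 191, against 401 and 171. Prdx2, an abundant peroxidase of red cells that was singled out after its values were seen, read 2341 and 2463, against 4995 and 4458. It did not meet the 2-fold rule on either array. Ube2o of the same list, singled out in the same way, lay above both controls, at 1222 and 977, against 951 and 813.

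Over 21 genes of heme transport, iron handling and heme breakdown the medians were -0.18 for Ifnar-/- and -0.21 for sLTβR-Fc. On the Ifnar-/- array 12 were below both controls (30.9% of all genes) and 6 above. On the sLTβR-Fc array 14 were below both (31.6% of all genes) and 6 above. Alas1, the enzyme of the first step outside the red cell lineage, was the only one with a 2-fold difference. It read 3090 with Ifnar-/- and 10056 with sLTβR-Fc, against 3998 and 3226 on the controls. This is the opposite direction to Alad and Urod on the same array. Tmem14c and Glrx5, mitochondrial proteins that heme synthesis needs in erythroid cells, were singled out after their values were seen. They read 2089 and 2540 against 5007 and 3620, and 921 and 1214 against 2411 and 1716. Neither met the 2-fold rule on either array. Hmox2 of the same list, singled out in the same way, lay above both controls, at 387 and 316, against 237 and 256.

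Markers of other cells also differed between the arrays. The list for red pulp and erythroblastic island macrophages had 11 of 14 markers measured. They summed to 2993 with Ifnar-/- and 4634 with sLTβR-Fc, against 7355 and 3837 on the controls. On control 2 11 of 11 were lower than on control 1 (43% of all genes). On the Ifnar-/- array 8 were below both controls (30.9% of all genes) and 2 above. Vcam1, an adhesion molecule of island macrophages, was 2-fold lower there, at 235 and 756, against 1344 and 486, as was the iron exporter Slc40a1, at 562 and 1709, against 2913 and 1594. Adgre1, which encodes the F4/80 antigen that the sort selected against, lay the other way, at 1017 and 631, against 629 and 306. Adgre1, Vcam1, Axl and Cd163 were 2-fold lower on control 2 than on control 1, as were Slc4a1, Hba-a1 and Alas2 among the members.

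Neutrophil markers (15 of 16) summed to 21057 and 91440, against 60318 and 42237. On the Ifnar-/- array 14 of 15 were below both controls (30.9% of all genes), and Camp, Ctsg, Lcn2, Ltf, S100a8 and S100a9 were 2-fold lower. On the sLTβR-Fc array the list was mixed, with 7 of 15 above both controls and 3 below (31.6% of all genes below). The median log2 difference there was 0.21, and Csf3r, Ctsg, Elane and Prtn3 were 2-fold higher. Cell cycle genes (21 of 24) summed to 17211 and 26685, against 30491 and 28568. On the Ifnar-/- array 21 of 21 were below both controls (30.9% of all genes), with Plk1, Rrm1 and Rrm2 2-fold lower. On the sLTβR-Fc array 7 of 21 were below both, which is near the share of all genes (31.6%).

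Markers of megakaryocytes and platelets (10 of 14) summed to 1901 and 3028, against 2240 and 3766, with Itga2b and Pf4 2-fold higher on control 2 than on control 1. Mast cell and basophil markers (12 of 12) summed to 14491 and 42292, against 15016 and 19105. The low Ifnar-/- sum came from the bright genes Mcpt8 and Prss34, which were 2-fold lower there. Of the 12, 7 were above both controls and 2 below (30.9% of all genes below), with a median log2 difference of 0.21. On the sLTβR-Fc array 12 of 12 were above both controls, and Cpa3, Fcer1a, Gata2, Hdc, Il4 and Prss34 were 2-fold higher. Eosinophil markers (6 of 10) summed to 5528 and 32393, against 6542 and 7029, with Ear10, Ear6, Epx, Prg2 and Prg3 2-fold higher on the sLTβR-Fc array. The dim Il5ra lay below both controls there, at 122, against 136 and 133. The sLTβR-Fc array had the highest sum on both of these lists and on the neutrophil list, but not on the megakaryocyte and platelet list. B cell markers (7 of 10) summed to 27450 and 13028, against 18518 and 17917, and T cell markers (8 of 10) to 5577 and 4663, against 7909 and 9462. The part of these cells in the values of the erythroid and heme genes was not tested.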

How the data were processed

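Total RNA of sorted spleen cells was labelled with biotin for Illumina single-colour mouse arrays, per the labels' protocols, and the submitters' processing notes name GenomeStudio 2011.1. The authors deposited 45281 probes with a linear intensity for each array. How background and scaling were treated is not stated. The deposited values looked unscaled, with upper quartiles of 156 and 146 with Ifnar-/- and sLTβR-Fc, against 188 and 179 on the controls. Precision is limited by the number of arrays.

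Probes were named through the platform annotation (34885 with 1 symbol). A probe was above background past the 95% point of noise mirrored about the most frequent intensity, which between 49.4% and 50.1% of probes passed. The deposited intensities were quantile normalised, raised to a floor of 112 and put on the log2 scale. Background remains in them, so differences of dim genes are understated. Each gene was represented by its brightest probe, and the comparison took in the 13901 genes that passed background on 1 array or more. limma 3.58.1 (R 4.3.3) fitted 3 group means with a variance trend, on 1 residual degree of freedom and 0.968 prior degrees of freedom, since many genes lie at the floor. In the second fit the prior was 988 degrees of freedom. Both fits let the unreplicated arrays borrow their spread from the controls. Promoter sequences are from RefSeq (GRCm38.p6). The rule for naming was every member, and of the other lists the genes 2-fold from both controls on an array or 2-fold apart between the controls. Cd209b and Marco were named outside it, as defining markers of the sort. Prdx2, Ube2o, Tmem14c, Glrx5 and Hmox2 were also named outside it, after their values were seen. Members and lists were chosen with earlier results of these data known. Alternatives covered scaling, background, floor, filter, probe choice, variance model and each control left out.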

Additional observations from a re-analysis of the deposited data

How the results depend on the processing

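Without any scaling, which put the median of all genes at -0.10 for Ifnar-/- and -0.22 for sLTβR-Fc, 10 and 10 members were 2-fold lower, the members' medians were -0.78 and -1.02, 6 members were 2-fold lower on control 2 than on control 1, and the median of Ifnar-/- minus sLTβR-Fc was 0.040. The counts of 2-fold lower members were 3 and 2 with a doubled floor and 3 and 3 with the mean of all probes of a gene, which takes in dim probes. The share of all genes that were 2-fold lower was not counted without scaling, with a doubled floor or with the mean of probes. Leaving out 1 control gave between 6 and 14 members 2-fold lower for Ifnar-/- and between 6 and 11 for sLTβR-Fc, with medians between -0.63 and -0.42 and between -0.74 and -0.32, the larger values against control 1. limma called 19 members lower for Ifnar-/- and 16 lower and 1 higher for sLTβR-Fc both without a floor and after normexp correction, and 21, 18 and 1 on genes above background on all 4 arrays. In either direction it called 1862 and 2092 of 13901 genes without a floor, and 1927 and 2129 after normexp correction. Among the 10365 genes above background on all 4 arrays it called 2009 and 2368. For Ifnar-/- minus sLTβR-Fc it called 2 lower without a floor, 2 after normexp correction (where 1 was 2-fold lower), 2 under median scaling and 5 on genes above background on all 4 arrays. Over all genes it called 1429, 1449, 4494 and 1701 in the same order, in either direction. Under median scaling, where the median of all genes was 0.17 for sLTβR-Fc, it called 1 higher for sLTβR-Fc. Of all 13902 genes in that setting it called 5152 for sLTβR-Fc, in either direction. The signs of a few small differences turned. In the values as deposited Gata1 was at -0.13 for Ifnar-/- and Icam4 at -0.24 for sLTβR-Fc. Under median scaling Rhag was at 0.098 and 0.25, and Gata1 and Tspo2 were at 0.20 and 0.23 for sLTβR-Fc. The causes were not tested. No paired analysis was possible because the groups share only 1 replicate number.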
